A study of Mus musculus with 6 samples.

Results

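The transcripts of 9 leukocyte integrin genes were followed in sorted mouse dendritic cells, the antigen-presenting cells that prime T cells. The genes were chosen by gene symbol and comprise 5 α chains (Itgax, Itgam, Itgal, Itga4 and Itgav) and 4 β chains (Itgb1, Itgb2, Itgb7 and Itgb8), out of 21914 symbols in the deposited table. All mice were C57BL/6, germ-free and knocked out for a Rag gene, so that they lacked T and B cells of their own and every T cell present after a transfer came from the donor, while innate lymphoid cells remained. In each of 2 tissues, peripheral lymph node and spleen, 3 states were profiled: mice given naive CD4 T cells, mice given regulatory T cells (Treg), both 1 week after the transfer, and un-injected mice. Each of the 6 groups holds 1 library, named below by its tissue and state. The sources used here do not give the Rag gene, the age and sex of the mice, the number of mice per library or the sorting gate.

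Integrins are αβ heterodimers that tie leukocytes to other cells and to matrix. Their β2 class pairs Itgb2 with Itgal (LFA-1), Itgam (Mac-1, CD11b), Itgax (CD11c) or Itgad, and binds ICAM molecules, complement fragments and fibrinogen. Itga4 pairs with Itgb1 to bind VCAM-1 and fibronectin, or with Itgb7 to bind MAdCAM-1 of gut vessels. Itgav pairs with Itgb8 or Itgb1, among other β chains, and the αv dimer with the β8 chain releases active TGF-β from its latent complex. CD11c is the usual surface marker for gating mouse dendritic cells and CD11b divides their subsets, so the level of Itgax or Itgam in a sorted sample can depend on the gate as well as on the cells.

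Levels are given in FPKM, a value scaled by gene length and by library, so that levels of different genes can be set side by side. A gene was kept for comparisons where it reached 1 FPKM in at least 2 libraries, which left 10818 genes and 8 of the 9 integrins. Itgb8 did not pass and is described by its levels. The sums of all values lay between 552580 and 861260 FPKM, and the read depth is unknown. All 10 dendritic cell markers passed the filter, with Cd74, the class II invariant chain, between 9886 and 25602 FPKM. Summed over the 17 T cell markers, of which the table lists 14, the level lay between 7.46 and 13.9 FPKM. Of the 14, 13 were above 0 in at least 1 library and 4 passed the filter. The CD3 gene Cd3e was listed at 0 in 5 libraries and Cd40lg in all 6.

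With 1 library in a group, a difference within a tissue compares 2 libraries and has no replicate check. Such differences are given as the log2 ratio of FPKM + 0.5 and counted from 2-fold upward. In these bulk samples, fewer cells of a type and less RNA per cell cannot be told apart.

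In the lymph node, 5 of the 8 integrins past the filter were at least 2-fold higher in the naive than in the un-injected library, against 16.9% of all genes. None was 2-fold lower, against 16.6% of all genes. The 5 were Itgb2, the 3 α chains Itgax, Itgam and Itgal that pair with it, and Itgb7. The same 5 were 2-fold higher in the Treg than in the un-injected library, where 11.4% of all genes were, and none was 2-fold lower, against 6.91%. Itga4, Itgb1 and Itgav stayed under 2-fold in both comparisons. The un-injected library is shared by both, so they are not independent of each other. The median log2 ratio over the 8 genes was 2.53 for naive and 1.61 for Treg over un-injected, beside medians over all genes of -0.004 and -0.02.

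**Figure D1:**
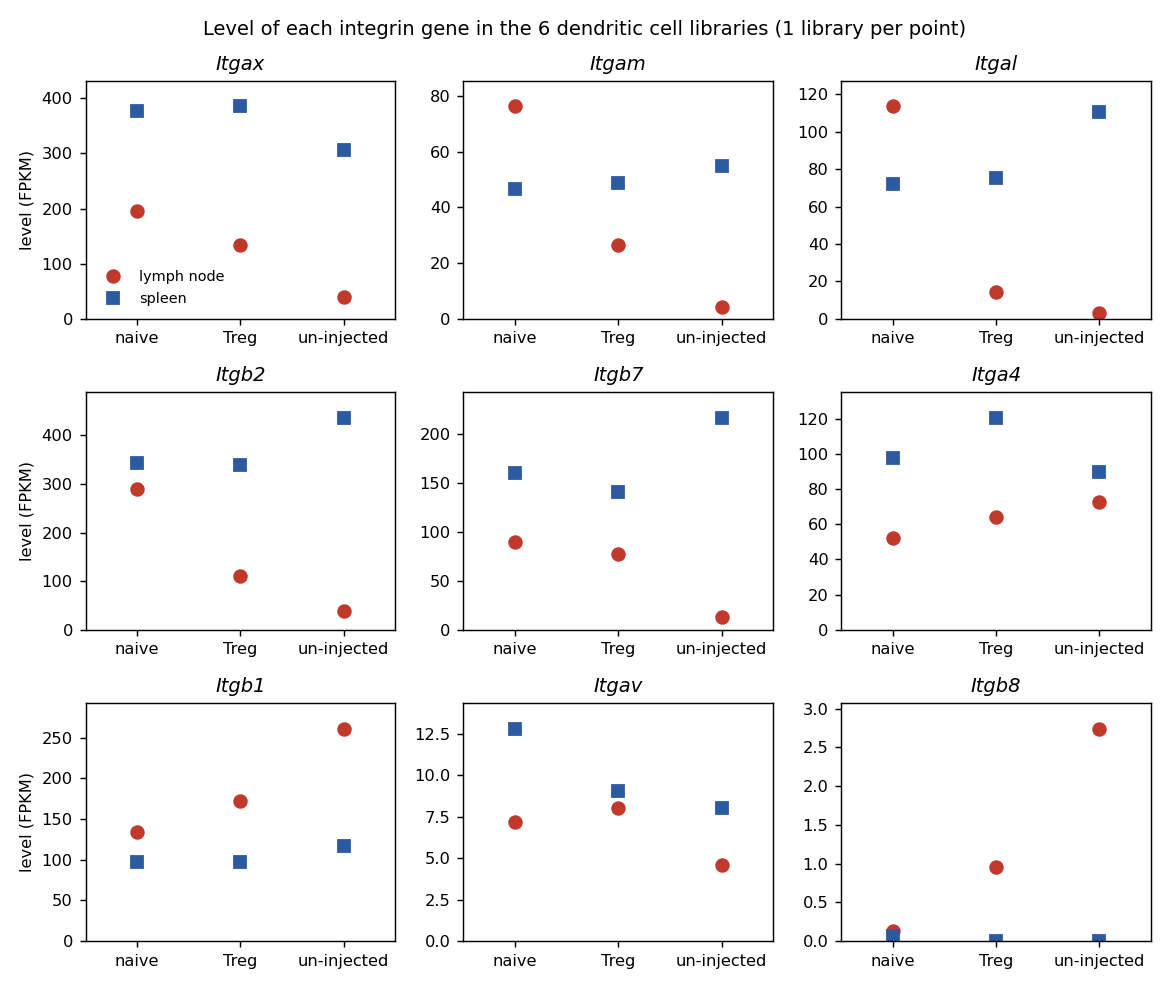
Level in FPKM (vertical axis, scale differs between panels) of each integrin gene in the naive, Treg and un-injected libraries, with lymph node as circles and spleen as squares, 1 library per point. Itgax, Itgam, Itgal, Itgb2 and Itgb7 have their lowest point in the un-injected lymph node library, whereas Itgb1 has its highest there, at 261 FPKM.

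Itgal, the α chain of LFA-1, differed most. It stood at 114 FPKM in the naive, 14.3 in the Treg and 3.10 in the un-injected lymph node library. The naive library was 31.7-fold above the un-injected one and 7.72-fold above the Treg library, and the Treg library was 4.11-fold above the un-injected one. In spleen Itgal had 72.0 FPKM in the naive, 75.4 in the Treg and 111 in the un-injected library. The naive lymph node level was thus above all 3 spleen levels, and the other lymph node levels were below all of them.

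Itgam, the α chain of Mac-1, had 76.2 FPKM in the naive, 26.5 in the Treg and 4.24 in the un-injected lymph node library. These levels were 16.2-fold and 5.70-fold above un-injected for naive and Treg, and the naive library was 2.84-fold above the Treg library. In spleen the levels were 46.4 FPKM in the naive, 48.5 in the Treg and 55.0 in the un-injected library. The spread within spleen was small beside that of the lymph node. Its level is the sum of 2 lines of the table that carry the symbol, of which the higher line holds 75.1, 26.2 and 4.24 FPKM in the naive, Treg and un-injected lymph node libraries.

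Itgax, which encodes CD11c, had 196 FPKM in the naive, 134 in the Treg and 39.7 in the un-injected lymph node library. It was 4.90-fold higher in naive and 3.36-fold higher in Treg than in un-injected. In spleen it had 377 FPKM in the naive, 385 in the Treg and 305 in the un-injected library. The order of the 3 states was the same as for Itgal and Itgam in the lymph node, but every spleen library was above every lymph node library.

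Itgb2, the common β chain of the class, had 290.6 FPKM in the naive, 110.0 in the Treg and 39.2 in the un-injected lymph node library. The naive level was 7.33-fold and the Treg level 2.78-fold above the un-injected one, and naive was 2.64-fold above Treg. Spleen libraries held 343 FPKM in the naive, 339 in the Treg and 437 in the un-injected state. As for Itgax, lymph node and spleen did not overlap.

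Itgb7, the β chain of the gut-homing receptor, had 89.8 FPKM in the naive, 77.6 in the Treg and 12.7 in the un-injected lymph node library. It was 6.84-fold and 5.92-fold above un-injected for naive and Treg. The 2 transfer libraries differed 1.16-fold, less than Itgax, Itgam, Itgal or Itgb2 did. In spleen Itgb7 had 160.6 FPKM in the naive, 141 in the Treg and 217 in the un-injected library.

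Between the transfers, 3 of the 8 integrins, Itgal, Itgam and Itgb2, were at least 2-fold higher in the naive than in the Treg lymph node library, against 9.30% of all genes, and none was 2-fold lower, against 11.4%. The 5 genes that were higher after both transfers each had the order naive above Treg above un-injected in the lymph node, which 24.2% of all genes had. Itga4 and Itgb1 had the reverse order, as did 27.0% of all genes.

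Itga4, the α chain shared by the VCAM-1 and MAdCAM-1 receptors, had 52.1 FPKM in the naive, 63.9 in the Treg and 72.6 in the un-injected lymph node library. In spleen it had 97.5 FPKM in the naive, 120.5 in the Treg and 89.5 in the un-injected library. The lymph node levels lay within 1.39-fold of one another, the narrowest lymph node spread of the 9 genes. The log2 ratio of Treg over un-injected, -0.18 in the lymph node, turned to 0.11 when each library was divided by its total.

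Itgb1, the β chain shared by the fibronectin, collagen and laminin receptors, had 134 FPKM in the naive, 172 in the Treg and 261 in the un-injected lymph node library. The naive library was 1.94-fold and the Treg library 1.51-fold below the un-injected one, both short of 2-fold. In spleen the levels were 96.5 FPKM in the naive, 97.4 in the Treg and 117 in the un-injected library. Itgb1 was the 1 gene among the 8 integrins past the filter whose lymph node libraries all lay above its spleen libraries, as they did for 16.9% of all genes.

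Itgav was low throughout, with 7.20 FPKM in the naive, 8.04 in the Treg and 4.59 in the un-injected lymph node library. In spleen it had 12.8 FPKM in the naive, 9.06 in the Treg and 8.05 in the un-injected library. All its ratios between states and between tissues were under 2-fold on the deposited scale, and dividing each library by its total moved Treg over un-injected in lymph node and naive over un-injected in spleen just past it, to 1.02 and 1.01 on the log2 scale.

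Itgb8, the αv partner that activates TGF-β, was the lowest of the 9 genes in every library. It had 0.124 FPKM in the naive, 0.955 in the Treg and 2.74 in the un-injected lymph node library. The naive spleen library had 0.0692 FPKM. It is listed at 0 in the Treg and un-injected spleen libraries. Values this low rest on few fragments, and a listed 0 may be a failed estimate, so no fold is given against spleen. Within the lymph node its log2 ratio was -2.38 for naive and -1.16 for Treg over un-injected, the opposite direction to Itgb2.

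In spleen, none of the 8 integrins differed 2-fold in either direction in any of the 3 comparisons. Of all genes, 4.50% were higher and 6.01% lower for naive over un-injected, 4.51% higher and 5.87% lower for Treg over un-injected, and 4.12% higher and 3.71% lower for naive over Treg. With shares this low, a count of 0 among 8 genes is close to the background. The widest ratios were those of Itgav for naive over un-injected, at 0.64, of Itgal, at -0.62, and of Itgb7 for Treg over un-injected, at -0.62 on the log2 scale. Itgam and Itgb2 were at -0.24 and -0.35 for naive over un-injected, and dividing each library by its total turned these to 0.15 and 0.05. The sign of the ratio was opposite in the 2 tissues for 5 of the 8 genes in each comparison with un-injected and for 4 of 8 in naive over Treg. Over all genes the shares were 52.5% for naive over un-injected, 45.9% for Treg over un-injected and 42.8% for naive over Treg, so the counts are near the background.

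**Figure D2:**
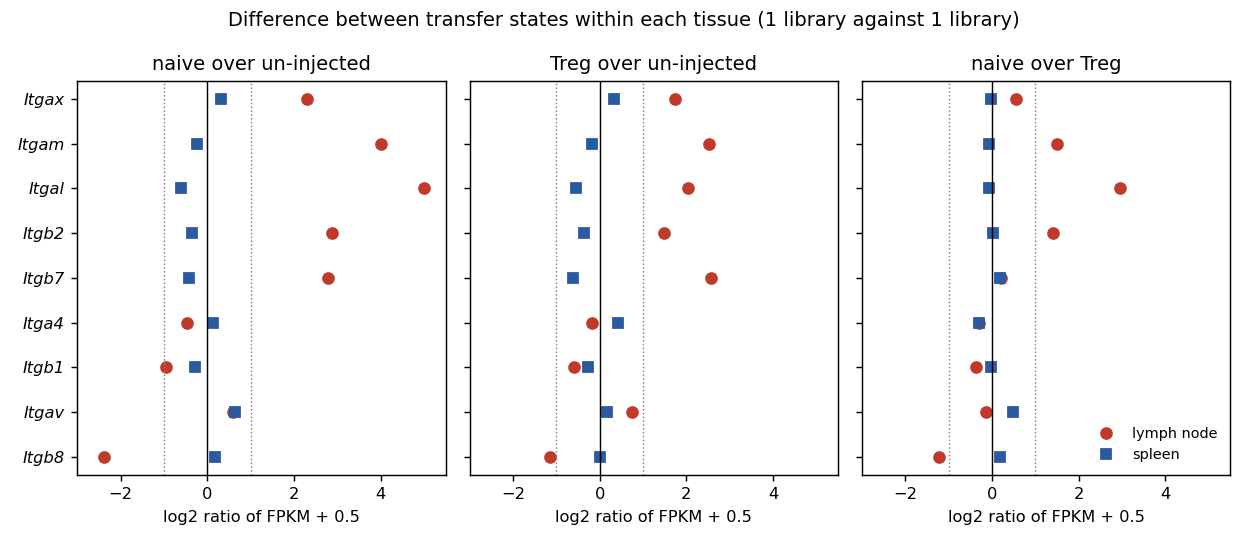
Log2 ratio of FPKM + 0.5 (horizontal axis) of each integrin for naive over un-injected, Treg over un-injected and naive over Treg, with lymph node as circles and spleen as squares, each point 1 library against 1 library, and dotted lines at 2-fold. Lymph node points reach 4.99 for Itgal, whereas spleen points lie between the dotted lines; Itgb8 is drawn from values near or at 0.

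Several marker lists also differed between the lymph node libraries. The 14 monocyte markers summed to 7817 FPKM in the naive, 1465 in the Treg and 424 in the un-injected library of lymph node, and none was listed at 0. All 14 were 2-fold higher in naive than in un-injected, against 16.9% of all genes. Lyz2, lysozyme, led them at 4311 FPKM in the naive, 577 in the Treg and 166 in the un-injected library. In spleen they summed to 1755 FPKM in the naive, 2110 in the Treg and 3390 in the un-injected library. The 12 markers of mature migratory dendritic cells ran the other way in the lymph node, at 2789 FPKM in the naive, 6241 in the Treg and 15811 in the un-injected library. Of the 12, 11 were at least 2-fold lower in naive than in un-injected, against 16.6% of all genes, and none was at 0. Ccr7, the receptor that guides dendritic cells into lymph nodes, had 895 FPKM in the naive, 2427 in the Treg and 5829 in the un-injected library. Markers of neutrophils, which also carry β2 integrins, summed to 68.7 FPKM in the naive, 8.99 in the Treg and 20.5 in the un-injected library of lymph node, and Ly6g was listed at 0 in every library but the naive lymph node one. In spleen their sum was 31.2 FPKM in the naive, 15.1 in the Treg and 854 in the un-injected library. The part of these cell types in the integrin levels was not tested.

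Between tissues, the un-injected libraries differed most. Itgax, Itgam, Itgal, Itgb2 and Itgb7 were lower in the un-injected lymph node than in the un-injected spleen library, with log2 ratios of -2.93, -3.55, -4.95, -3.46 and -4.04, and Itgb1 was higher, at 1.16. These were 5 of 8 genes 2-fold lower, against 20.9% of all genes, and 1 of 8 higher, against 21.0%. Between the Treg libraries, Itgax, Itgal and Itgb2 were 2-fold lower in lymph node, at -1.52, -2.36 and -1.62, against 8.37% of all genes, and none was higher, against 13.4%. Between the naive libraries no integrin differed 2-fold, where 12.2% of all genes were 2-fold above spleen and 8.94% below it.

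Across the 3 states, all lymph node libraries lay below all spleen libraries for Itgax, Itgb2, Itgb7, Itga4 and Itgav, which 16.4% of all genes did, and above them for Itgb1, which 16.9% did. For Itgav the gap was small, 8.04 FPKM in the Treg lymph node library against 8.05 in the un-injected spleen library. The log2 ratio of Itgav between the Treg libraries, -0.16, turned to 0.07 when each library was divided by its total. That of Itga4 between the un-injected libraries, -0.30, turned to 0.04 in the same way, which ends the separation of the tissues for both genes. Itgal and Itgam overlapped between tissues, through the naive lymph node library.

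The make-up of the β chains differed between the lymph node libraries more than between the spleen libraries. Itgb1 took 26.1% of the summed FPKM of the 4 β chains in the naive, 47.8% in the Treg and 82.7% in the un-injected lymph node library. In spleen it took 16.1% in the naive, 16.9% in the Treg and 15.2% in the un-injected library. Itgb2 took 56.5% in the naive, 30.5% in the Treg and 12.4% in the un-injected lymph node library, against 57.2%, 58.6% and 56.7% in the naive, Treg and un-injected spleen libraries. The naive lymph node library was thus near the spleen libraries in its Itgb2 share, and the un-injected one was far from them. Itgb7 took 17.4% in the naive, 21.5% in the Treg and 4.02% in the un-injected library of lymph node, and between 24.5% and 28.2% in spleen. Itgb1 exceeded Itgb7 by 1.50-fold in the naive, 2.22-fold in the Treg and 20.5-fold in the un-injected library of lymph node, and was below it in all 3 spleen libraries.

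**Figure D3:**
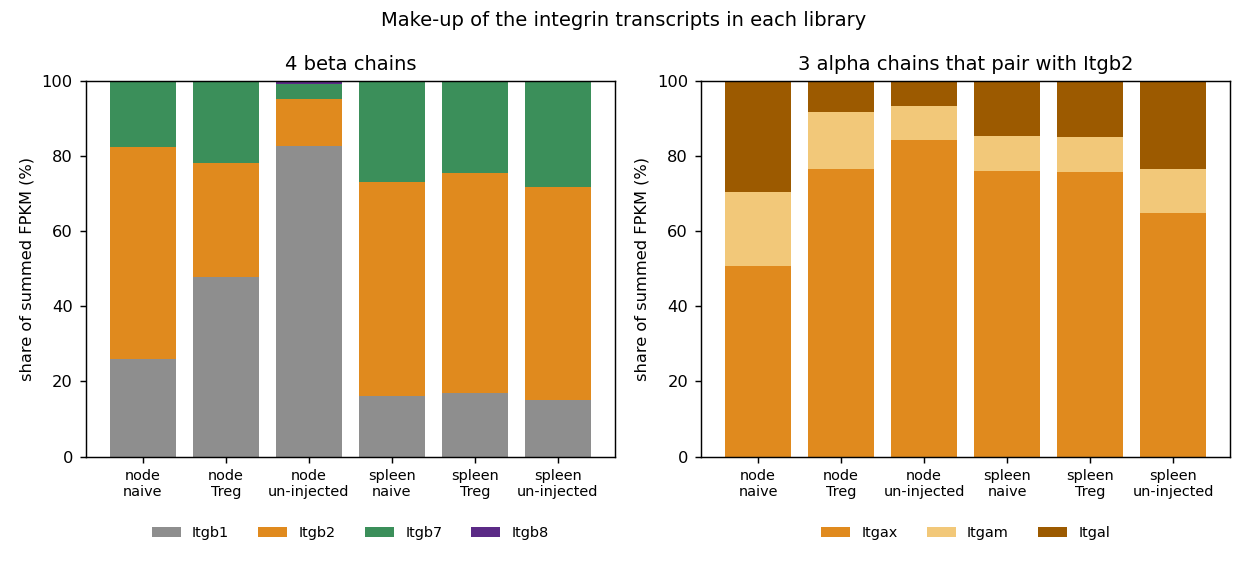
Share of summed FPKM (vertical axis, percent) taken by each of the 4 β chains (left) and by Itgax, Itgam and Itgal, α chains that pair with Itgb2, within their own sum (right) in the 6 libraries, with lymph node before spleen. Itgb1 takes 82.7% of the β chains in the un-injected library of lymph node and between 15.2% and 16.9% in the spleen libraries.

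Within the sum of Itgax, Itgam and Itgal, Itgax held 50.9% in the naive, 76.7% in the Treg and 84.4% in the un-injected lymph node library. In spleen it held 76.1% in the naive, 75.7% in the Treg and 64.8% in the un-injected library. Itgal held 29.4% in the naive, 8.15% in the Treg and 6.59% in the un-injected lymph node library, against 14.5%, 14.8% and 23.5% in the naive, Treg and un-injected spleen libraries. Summed, the 3 α chains were 1.33, 1.59 and 1.20 times the level of Itgb2 in the naive, Treg and un-injected lymph node libraries, and 1.44, 1.50 and 1.08 times in spleen. The sum of the α chains thus kept within 1.08 and 1.59 times Itgb2, while Itgb2 itself ranged from 39.2 to 437 FPKM. Itga4 stood at 0.580, 0.824 and 5.72 times Itgb7 in the naive, Treg and un-injected lymph node libraries, and at 0.607, 0.853 and 0.413 times in the spleen ones. It stood at 0.388, 0.371 and 0.278 times Itgb1 in the naive, Treg and un-injected lymph node libraries, and at 1.01, 1.24 and 0.767 times in the spleen ones. Over all 6 libraries both ratios spanned a wider range than the α sum over Itgb2. That sum pools 3 chains, so the measures are unlike. Taken alone, Itgal ran from 0.0789 times Itgb2 in the un-injected to 0.391 times in the naive lymph node library. Over the 6 libraries Itgam ran from 0.108 to 0.262 times and Itgax from 0.676 to 1.22 times Itgb2.

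Over both tissues, no integrin was called between states, at an adjusted p of 0.05, in the model fitted to all 6 libraries. This was limma on log2(FPKM + 1) with additive terms for transfer and tissue. It has 2 residual degrees of freedom. A p-value from it reflects how alike the tissues, or the states, run and not the spread between mice. A shift in 1 tissue only adds to the residual, so the absence of a call does not show that a gene did not differ. Naive minus un-injected was 1.29 ± 0.50 (SE) for Itgax, 1.82 ± 0.93 for Itgam and 2.10 ± 1.19 for Itgal on the log2 scale. The limma adjusted p-values of the 8 genes in this comparison lay between 0.661 and 0.877. Of all genes 0 passed at an adjusted p of 0.05, and 785 (7.26%) had an unadjusted p below it, Itgax among the 8 integrins, at 0.0445. Treg minus un-injected and naive minus Treg also gave 0 calls, with 508 (4.70%) and 370 (3.42%) genes at an unadjusted p below 0.05, no integrin among them. For the tissue term, lymph node minus spleen, limma called 48 genes higher (0.444%) and 26 lower (0.240%), no integrin among them. At an unadjusted p below 0.05, limma had 25.3% of all genes and 5 of the 8 integrins (Itgax, Itgb1, Itgb2, Itga4 and Itgb7). Itgax came nearest at -1.79 ± 0.41 (adjusted p = 0.0909 by limma), followed by Itgb1 at 0.81 ± 0.24 (adjusted p = 0.126 by limma). Leaving out 1 library moved these differences. Such fits leave a state with 1 library, which is assumed to vary like the others, and 1 residual degree of freedom. Without the un-injected spleen library, naive minus un-injected was 2.14 for Itgax, 3.49 for Itgam and 2.72 for Itgb7. Without the naive spleen library it was 4.19 for Itgal. With other libraries left out, this difference fell as low as 0.45 for Itgax, 0.15 for Itgam, -0.43 for Itgb7 and -0.0037 for Itgal. When either naive library was left out, its partner no longer bore on the tissue term. Lymph node minus spleen was then -2.21 for Itgax, -2.13 for Itgam, -3.55 for Itgal, -2.53 for Itgb2 and -2.42 for Itgb7. At the other end of the range over libraries left out, it was -1.23, -0.073, -0.84, -0.93 and -0.84 in the same order.

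**Figure D4:**
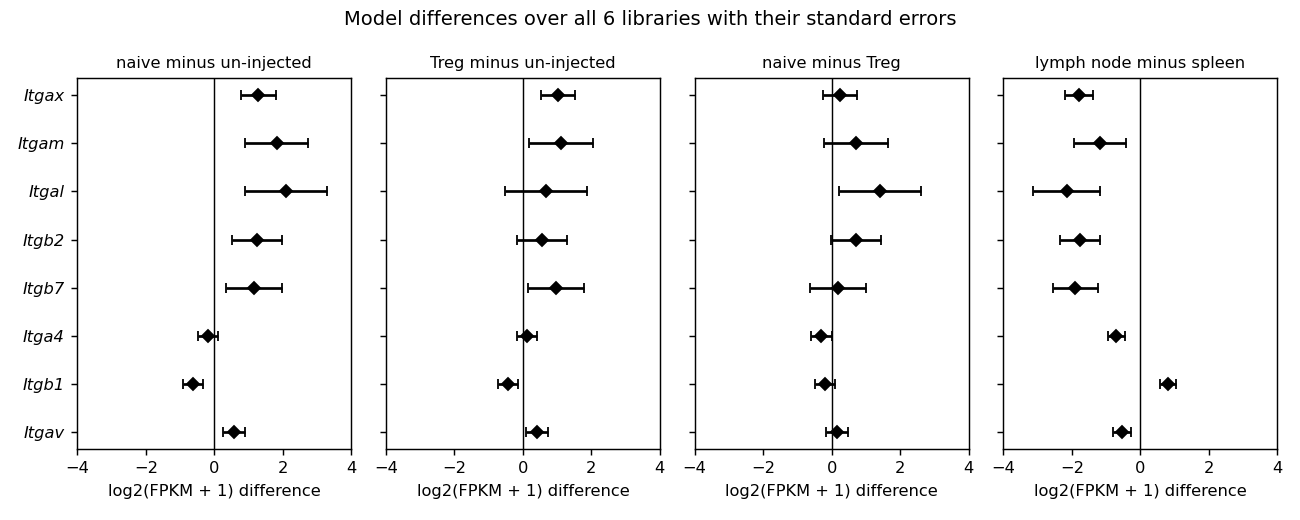
Differences on the log2(FPKM + 1) scale (horizontal axis) from the model over all 6 libraries, with bars of 1 standard error, for the 8 integrins past the filter. Bars are widest for Itgal, at 1.19 for naive minus un-injected, and no difference shown passed the adjusted threshold.

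The authors' deposited tables compare 1 library with 1 library and mark loci that differ at least 2-fold at p-values up to 0.01. For the naive against the un-injected lymph node library, the authors' deposited table marks Itgal (log2 5.20, p = 0.00065), Itgam (4.15, p = 0.00505), Itgb2 (2.89, p = 0.0023) and Itgb7 (2.82, p = 0.00505), where 3.46% of tested loci are marked. Itgax is at 2.31 with p = 0.02005 in the authors' deposited table and is not marked. For Treg against un-injected in the lymph node, the authors' deposited table marks Itgam (2.63, p = 0.00995) and Itgb7 (2.61, p = 0.00735), against 0.717% of tested loci. In the authors' deposited tables of Treg against naive in lymph node, and of naive against un-injected, Treg against un-injected and Treg against naive in spleen, no integrin is marked, where 1.18%, 0.104%, 0.155% and 0.0779% of tested loci are. The lowest q-value of an integrin in the authors' deposited tables is 0.312, that of Itgal. Itgb8 was left untested in each of the authors' deposited tables.

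Genes with the most similar profile over the 6 libraries were sought for Itgax, Itgam and Itgb8, by the root mean square distance between log2(FPKM + 1) values centred on their mean. Nearest to Itgax, among 2490 candidates, were Lair1 (0.134), Mapk14 (0.148) and Ccdc69 (0.154), with Itgb2 in place 65 and Itgb7 in place 104. Lair1, an inhibitory collagen receptor, had 21.3 FPKM in the naive, 16.0 in the Treg and 3.63 in the un-injected lymph node library, against 36.1, 40.5 and 38.7 in the naive, Treg and un-injected spleen libraries. Nearest to Itgam, among 2031 candidates, were Rgs14 (0.117), Igsf6 (0.168) and Sirpb1b (0.172). For Itgb8, whose low values make the profile depend on the pseudocount and on the listed zeros, the nearest of 4894 candidates were Zfand6 (0.0756), Zbtb46 (0.126) and Mllt1 (0.126). Zbtb46, a transcription factor that marks conventional dendritic cells, had 17.1 FPKM in the naive, 30.8 in the Treg and 49.8 in the un-injected library of lymph node, and between 13.5 and 18.0 in spleen. These are descriptions over 6 libraries that share tissues and states.

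The genes lie on 6 chromosomes of the mouse (GRCm38, the build also called mm10, with GENCODE M21 annotation and 1-based positions). Itgal (chr7:127296260-127335138), Itgam (chr7:128062640-128118491) and Itgax (chr7:128129547-128150657) lie in this order on the plus strand of chromosome 7. Itga4 (chr2:79255426-79333123) and Itgav (chr2:83724397-83806916) are on the plus strand of chromosome 2, Itgb1 (chr8:128685654-128733200) on that of chromosome 8 and Itgb2 (chr10:77530252-77565708) on that of chromosome 10. Itgb7 (chr15:102215995-102231944) and Itgb8 (chr12:119158022-119238802) are on the minus strand. The locus given for Itga4 in the table runs on to base 79461107, across Cerkl and Neurod1 of the opposite strand, which have lines of their own. That of Itgam runs to base 128128160. Gm49368, a protein-coding gene of the same strand with no line of its own, overlaps Itgam, so strand cannot tell their reads apart. The sources used here do not say whether counting used strand. Whether reads of Itga4 and Cerkl were told apart where the 2 genes overlap is therefore unknown.

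Upstream sequence is shown for 3 genes that were 2-fold higher in the lymph node after both transfers, Itgax, Itgam and Itgb7. It is also shown for Itgb1, which was lower by less than 2-fold, to set their base composition side by side. Each line is the 250 bases before the RefSeq start (GRCm38.p6), 5′ to 3′ on the gene's strand, with CG dinucleotides in capitals: chr7:128129300-128129549 (plus) for Itgax, chr7:128062390-128062639 (plus) for Itgam, chr15:102231936-102232185 (minus) for Itgb7 and chr8:128685404-128685653 (plus) for Itgb1.
Itgax: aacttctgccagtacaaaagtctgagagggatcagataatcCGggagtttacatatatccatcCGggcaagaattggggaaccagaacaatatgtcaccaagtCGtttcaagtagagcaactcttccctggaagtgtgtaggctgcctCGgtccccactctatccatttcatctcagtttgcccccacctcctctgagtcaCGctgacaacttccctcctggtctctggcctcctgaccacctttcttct
Itgam: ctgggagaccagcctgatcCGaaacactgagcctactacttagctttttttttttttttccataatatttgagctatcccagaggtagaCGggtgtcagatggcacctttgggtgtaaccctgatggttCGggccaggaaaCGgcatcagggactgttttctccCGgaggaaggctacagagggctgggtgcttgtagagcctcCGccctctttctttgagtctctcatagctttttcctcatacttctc
Itgb7: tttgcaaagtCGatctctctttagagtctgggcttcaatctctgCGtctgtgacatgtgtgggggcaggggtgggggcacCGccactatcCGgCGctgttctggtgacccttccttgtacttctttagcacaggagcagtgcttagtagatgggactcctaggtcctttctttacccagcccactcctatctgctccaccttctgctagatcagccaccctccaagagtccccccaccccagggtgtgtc
Itgb1: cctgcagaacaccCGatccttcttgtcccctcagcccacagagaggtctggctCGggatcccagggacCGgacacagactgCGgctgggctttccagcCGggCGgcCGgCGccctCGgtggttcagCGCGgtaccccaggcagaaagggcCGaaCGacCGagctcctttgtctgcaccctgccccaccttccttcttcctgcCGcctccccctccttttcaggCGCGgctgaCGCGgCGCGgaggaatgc
Itgax, Itgam and Itgb7 hold 5, 6 and 5 CG dinucleotides, at or below the median of 6 over 32851 RefSeq promoters of this length, and Itgb1 holds 21. Of the other integrins with an entry, Itga4 holds 6, Itgb8 12 and Itgav 18. The GC content of the Itgb1 window was 68.0%, against 50.0%, 49.6% and 56.0% for Itgax, Itgam and Itgb7 and a median of 52.4%. Itgal and Itgb2 were not matched. The letters TTCCTC, a core of PU.1 sites, were found on either strand upstream of Itgam, Itgav and Itgb1, and in 23.3% of all promoters. The letters TGAGTCA, an AP-1 site, were found upstream of Itgax, 56 to 50 bases before the start, and in 4.46% of all promoters. The letters TGTGGT, a RUNX core, were found upstream of Itga4 and in 14.0% of all promoters. These motifs were chosen after the sequences had been read, and a match describes letters only.

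Of the 18 other integrin subunits, 11 passed the filter. In the naive against the un-injected lymph node library 2 of them were 2-fold higher and 3 lower, near the 16.9% and 16.6% of all genes, with a median log2 ratio of 0.48. Itgae, the α chain CD103 that pairs with Itgb7 and binds E-cadherin, had 15.1 FPKM in the naive, 9.47 in the Treg and 1.48 in the un-injected lymph node library, the same order as Itgb7. In spleen Itgae had 14.6 FPKM in the naive, 18.8 in the Treg and 40.3 in the un-injected library, and was 2-fold lower after both transfers. Itgad, a further β2-binding α chain, had 5.56 FPKM in the naive, 8.19 in the Treg and 29.5 in the un-injected spleen library, and at most 1.39 FPKM in lymph node, where naive over un-injected was at 0.48 on the log2 scale. Itga5, the fibronectin receptor chain that pairs with Itgb1, had 26.6 FPKM in the naive, 16.5 in the Treg and 13.2 in the un-injected library of lymph node, and at most 10.4 FPKM in spleen. Itgb5 was between 4.53 and 14.0 FPKM.

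Of the 18 ligands and counter-receptors, 9 passed the filter, and 4 were 2-fold higher and 4 lower in the naive than in the un-injected lymph node library, against 16.9% and 16.6% of all genes. The 4 higher ones, named after their values were seen, were Icam2 (1.21), Cdh1 (1.92), Fn1 (2.27) and Spp1 (3.73). Icam1, the ligand of LFA-1 and Mac-1, had 179 FPKM in the naive, 211 in the Treg and 427 in the un-injected lymph node library, a log2 ratio of -1.25 for naive over un-injected. In spleen Icam1 had 82.7 FPKM in the naive, 57.2 in the Treg and 83.5 in the un-injected library. Icam2, another ligand of LFA-1, had 4.81 FPKM in the naive, 5.33 in the Treg and 1.80 in the un-injected lymph node library. These ligands thus differed in direction in the lymph node. Mfge8, a bridging ligand of αv integrins, had 26.4 FPKM in the naive, 111 in the Treg and 327 in the un-injected library of lymph node, and at most 7.91 FPKM in spleen. Vcam1, the ligand of Itga4 with Itgb1, had a log2 ratio of -0.42 in the lymph node and -1.72 in spleen for naive over un-injected. F11r, an adhesion molecule that LFA-1 binds, was at -1.34 in the lymph node and 0.64 in spleen.

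Genes that switch integrins on and carry their signal were counted in the same way. Of 17 talin, kindlin and Rap1 genes past the filter, 8 were 2-fold higher and 2 lower in naive than in un-injected lymph node (median log2 ratio 0.82), against 16.9% and 16.6% of all genes. In spleen 0 did either for naive over un-injected, near the 4.50% and 6.01% of all genes. In the lymph node 3 were higher and 0 lower for Treg over un-injected, against 11.4% and 6.91% of all genes. For naive over Treg 0 differed 2-fold, where 9.30% of all genes were higher and 11.4% lower. Rap1a, a small GTPase that turns integrins on from inside the cell, had 193 FPKM in the naive, 120 in the Treg and 47.1 in the un-injected lymph node library. Cytip, which binds the β2 activator cytohesin-1 in dendritic cells, ran the other way, with 290.1 FPKM in the naive, 347 in the Treg and 551 in the un-injected library. Rap1b and Skap2 were at 0.52 and 0.82 for naive over un-injected. Of 19 adaptors and kinases, 9 were 2-fold higher and 2 lower (median 0.73) for naive over un-injected in the lymph node, against 16.9% and 16.6% of all genes. For Treg over un-injected 5 were higher and 2 lower, against 11.4% and 6.91%. For naive over Treg 7 were higher and 1 lower, against 9.30% and 11.4%. None did either in spleen for naive over un-injected, near the 4.50% and 6.01% of all genes. Lyn, a Src-family kinase of myeloid cells, was at 2.59, and Vasp, which acts on actin at adhesions, at 2.14. Zyx, another actin regulator there, had 352 FPKM in the naive, 167 in the Treg and 87.9 in the un-injected library. Lyn had 219 FPKM in the naive, 92.6 in the Treg and 36.1 in the un-injected library of lymph node, and at least 179 in each spleen library.

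Of 19 genes of TGF-β storage, activation and response, 4 were 2-fold higher and 4 lower in the naive than in the un-injected lymph node library, near the 16.9% and 16.6% of all genes, with a median log2 ratio of 0.14. Tgfb1 had 107 FPKM in the naive, 52.6 in the Treg and 20.2 in the un-injected lymph node library, while Itgb8 had 0.124 FPKM in the naive and 2.74 in the un-injected one. In spleen Tgfb1 had 89.7 FPKM in the naive, 116 in the Treg and 117 in the un-injected library. Nrros, which tethers latent TGF-β on myeloid cells, was at 0.93, and Skil and Tgif1, repressors of the SMAD response, were at -1.28 and -0.27. No gene of the 5 pathway lists was called by limma in any of the 4 comparisons.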

How the data were processed

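RNA of dendritic cells isolated by flow cytometry was sequenced after a TruSeq preparation from total RNA, per the labels' protocols. The authors deposited 1 table of all 6 libraries, whose values are treated here as FPKM. The header does not name the unit. Per the submitters' processing notes, RSEM and edgeR 3.16.5 and the builds mm10 and GRCm38.p4 played a part, which is not specified. The authors also deposited 6 comparison tables which, per the file headers, give each locus a p-value, a q-value and a log2 fold change. The sources used here do not name the tool behind them.

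Lines of the 38 repeated symbols were summed. Ratios used FPKM + 0.5. The model was fitted with limma 3.58.1 in R 4.3.3, with an intensity trend, to log2(FPKM + 1) with Benjamini-Hochberg adjustment over 10818 genes. It was also run on simulated data with the same shift in both tissues, which cannot show how it handles shifts that differ between tissues. Alternatives were other pseudocounts, scalings and filters, a model with no trend or fewer terms, and each library left out. The report gives all 9 integrins, the 4 genes of each pathway list and the top markers of the lists it uses by mean FPKM, and the 3 nearest profiles of Itgax, Itgam and Itgb8. A gene that this rule names is not reported here. Members and lists were chosen with earlier results of these data known.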

Additional observations from a re-analysis of the deposited data

Results flagged for a closer look

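In 7 integrins the 2 tissues had log2 ratios of opposite sign in at least 1 comparison. Each value is 1 library against 1 library, and the difference between tissues was not tested. Signs were opposite in 52.5% of all genes for naive over un-injected, 45.9% for Treg over un-injected and 42.8% for naive over Treg, so opposite signs are common in these libraries.

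For naive over un-injected, lymph node and spleen were at 4.99 and -0.62 for Itgal, 4.02 and -0.24 for Itgam, 2.87 and -0.35 for Itgb2, 2.77 and -0.43 for Itgb7, and -0.47 and 0.12 for Itga4. For Treg over un-injected they were at 2.04 and -0.55 for Itgal, 2.51 and -0.18 for Itgam, 1.47 and -0.37 for Itgb2, 2.56 and -0.62 for Itgb7, and -0.18 and 0.43 for Itga4. For naive over Treg they were at 2.95 and -0.066 for Itgal, 1.50 and -0.063 for Itgam, 0.55 and -0.031 for Itgax, and -0.15 and 0.48 for Itgav. The spleen values of Itgam and Itgb2 against un-injected, and the lymph node value of Itga4 for Treg over un-injected, changed sign when each library was divided by its total.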

How the results depend on the processing

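No paired analysis was possible because each group holds 1 library and the labels carry no replicate numbers. Of 81 integrin ratios, 9 changed sign under library totals, 0 under median-ratio factors and 0 with a pseudocount of 1. They were Itga4 for Treg over un-injected in lymph node (0.11) and between the un-injected tissues (0.04), Itgav between the Treg tissues (0.07), and, in spleen for naive and Treg over un-injected, Itgam (0.15, 0.21), Itgb1 (0.12, 0.13) and Itgb2 (0.05, 0.02). Library totals also moved 4 ratios across 2-fold, among them Itgb1 between the Treg tissues (1.07), and the pseudocount moved 3, all of Itgb8. Taking Itgam from its higher line alone, an alternative chosen after seeing the data, moved 0 of its 9 ratios across 2-fold. Library totals shifted the median of all genes to 0.31 for both spleen comparisons with un-injected, 0.25 for Treg over un-injected and -0.18 for naive over Treg in lymph node, and 0.27, 0.23 and 0.11 between un-injected, Treg and naive tissues. The share of 2-fold genes that were higher was then 76.9%, against 42.8% on the deposited scale, for spleen naive over un-injected, 79.8% against 43.5% for spleen Treg, 82.4% against 62.3% for lymph node Treg, 33.5% against 44.9% for lymph node naive over Treg, 75.4% against 61.6% between Treg tissues and 64.1% against 50.0% between un-injected ones.

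With library totals the higher and lower counts were 1167 and 351 for spleen naive and 1256 and 317 for spleen Treg over un-injected, and 388 lower for lymph node Treg. With a filter of 5 FPKM they were 267 and 369, 263 and 342, and 438 lower, then 212 and 178 for spleen naive over Treg, 708 lower for lymph node naive over Treg, 1121 lower for lymph node naive over un-injected, 869 and 574 between naive tissues and 871 higher between Treg tissues. The filter tests fewer genes.

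Against 74 limma calls between tissues there were 22 with the 5 FPKM filter, 23 with library totals, 0 with no filter, 2 with no trend, 311 with no transfer term and 44 with a pseudocount of 0.25. With no trend, Treg minus un-injected and naive minus Treg each gave 2. Leaving out 1 library gave 0 to 1471 calls between tissues, the most without the naive lymph node library, 0 to 382 for naive minus un-injected, 0 to 17 for Treg minus un-injected and 0 to 104 for naive minus Treg. The cause was not tested.

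The model difference of Itga4 for naive minus un-injected was 0.080 with library totals. Over libraries left out, naive minus un-injected spanned -0.47 to 0.12 for Itga4, -0.0037 to 4.19 for Itgal, -0.0023 to 2.51 for Itgb2 and -0.43 to 2.72 for Itgb7. Treg minus un-injected spanned -0.18 to 0.42 for Itga4, -1.29 to 2.64 for Itgal, -0.56 to 2.78 for Itgam, -0.71 to 1.81 for Itgb2 and -0.62 to 2.53 for Itgb7. Naive minus Treg spanned -0.38 to 0.90 for Itgax, -0.70 to 2.13 for Itgam, -0.68 to 3.52 for Itgal, -0.44 to 1.85 for Itgb2, -0.60 to 0.99 for Itgb7, -0.44 to 0.069 for Itgb1 and -0.13 to 0.44 for Itgav. Low levels such as those of Itgb8 are limited by an unknown depth.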

Other observations

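Dendritic cell subset markers also differed between the libraries in which the integrins were measured. Summed over 12 markers of type 1 conventional dendritic cells, the level was 1045 FPKM in the naive, 728 in the Treg and 495 in the un-injected library of lymph node, and 1446, 1922 and 2578 in the naive, Treg and un-injected spleen libraries. For naive over un-injected in lymph node, 8 of the 12 were 2-fold higher and 2 lower, against 16.9% and 16.6% of all genes. For Treg over un-injected in lymph node, 7 were higher and 1 lower, against 11.4% and 6.91%. Between the un-injected libraries, 1 was 2-fold higher and 10 lower in lymph node than in spleen, against 21.0% and 20.9%. For naive over Treg in lymph node, 1 of the 12 was 2-fold higher and 2 lower, against 9.30% and 11.4% of all genes. The median log2 ratio of the 12 was -0.11 there. Much of the higher naive sum was Naaa, at 413 FPKM in the naive and 172 in the Treg library. The 12 markers of type 2 cells, the CD11b-bearing subset, summed to 686 FPKM in the naive, 1000.4 in the Treg and 263 in the un-injected library of lymph node, and to between 651 and 733 in spleen. Itgam was highest in the naive and the type 2 sum in the Treg lymph node library. Langerhans cell markers summed to 36.8 FPKM in the naive, 153 in the Treg and 383 in the un-injected lymph node library. Itgb8 had this order, as did 27.0% of all genes. Most of each sum was Mfge8, also an αv ligand, at 26.4, 111 and 327 FPKM in the naive, Treg and un-injected libraries. Of the 5 markers past the filter, 4 were 2-fold lower and 1 higher for naive over un-injected, against 16.6% and 16.9% of all genes. For Treg over un-injected 1 was lower and 0 higher, against 6.91% and 11.4%. Macrophage markers summed to 394 FPKM in the naive, 211 in the Treg and 174 in the un-injected lymph node library. The part of these cell types in the integrin levels was not tested.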
